A study of Mus musculus with 4 samples.

Results

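Of 37778 peaks of an MBD1 ChIP-seq experiment in the mouse dentate gyrus, 3236 (8.57%) met a rule for strong enrichment over ordinary input. The name is that of the rule, and most members had a low input within its limits, as described below. The peak list is labelled with a false discovery rate of 0.2, a permissive limit, so a part of its peaks may be false calls. The members were chosen by measured values of the list itself. They lie on chromosomes 1 to 19, are at least 1000 bp and under 10000 bp wide, have a mean input of 3 to under 20 reads per bin, and have a mean ChIP count of at least 3 times the scaled input. Because the ratio of ChIP to input selected them, their ratios, ChIP counts and input counts are given as descriptions, and no test of enrichment is made. Peaks that met the limits on chromosome, width and input numbered 32834 and are called comparable peaks. Of these, 3236 (9.86%) reached the ratio of 3 and 29598 did not.

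The tissue came from C57BL6 mice, around 9 weeks of age, of a line that carries FLAG-tagged Mbd1. Sonicated nuclei gave 2 libraries precipitated with anti-FLAG antibody (ChIP) and 2 libraries without antibody (input), all from the tagged line. The labels do not say how the tag was introduced, which promoter drives it or how many animals a library holds, and ChIP from untagged mice was not analysed here. The 4 libraries contribute to 1 list of peaks with no value per library, so the spread between replicates is unknown for every value, and intervals cover counting error or the variation from peak to peak. The dissected tissue holds several cell types, and a site bound in few cells cannot be told apart from a site bound weakly in many. A peak list carries no marker of cell type, so the labelled tissue was not checked.

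MBD1 belongs to the methyl-CpG-binding domain proteins. It attaches to methylated CpG dinucleotides, some isoforms also carry a CXXC zinc finger that binds CpG without methylation, and it recruits enzymes that place repressive histone marks. In the adult hippocampus it is known for its part in neural stem cell differentiation, and the dentate gyrus is where these stem cells lie. All positions below are on mm9. Gene names and sequences at these positions are not given, because the gene tables used here are on another build.

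Pooled over all inputs, members had a lower input than other comparable peaks and a slightly lower ChIP count. ChIP and input values are mean reads per 200 bp bin over the bins of a peak, and the ratio divides ChIP by the input after the authors' scaling (times 2.42). The median input of members was 6.61 (95% interval 6.55 to 6.67), against 12.2 (12.1 to 12.2) in comparable peaks under the limit. Their median ChIP count was 54.8 (54.4 to 55.1), below the 58.8 (58.7 to 58.9) of the other comparable peaks. The median ChIP count of all comparable peaks, 58.6, was reached by only 1089 members (33.7%). In 2997 members (92.6%) the input lay below the median of all comparable peaks, 11.8. Part of this follows from the rule, since a low denominator makes a high ratio.

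Most members stood close to the limit. The median ratio was 3.49 and the middle 50% of members ran from 3.19 to 4.01. A ratio of 4 or more was reached by 826 members (25.5%), of 6 or more by 96, of 10 or more by 12 and of 20 or more by 6. Just inside the limit were the peaks from 17121600 to 17123199 on chromosome 10 and from 64424527 to 64426180 and 17276645 to 17279184 on chromosome 4, with ratios of 3.00003 to 3.00035. Just outside it were peaks from 47241678 on chromosome 16 (ratio 2.99989), and from 58152493 on chromosome 8 and 54946041 on chromosome 17 (both 2.99965). Counting error is far wider than these steps. The exact binomial 95% interval of a member's own summed counts lay at or above 3 in 918 members and reached below it in 2318. Of the comparable peaks under the limit, 4746 had an interval that reached 3. Membership of many peaks near 3 was thus not resolved by their counts.

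How many peaks became members depended steeply on input. All 466 comparable peaks with an input of 3 to under 5 were members, as were 1470 of 1606 (91.5%) with 5 to under 7. With 7 to under 10 it was 980 of 7352 (13.3%). Within such a band the ChIP count of members was the higher one, as the rule requires. Its median was 52.0 in members against 46.5 in the others at an input of 5 to under 7, and 59.8 against 54.0 at 7 to under 10. Above that, members were rare: 173 of 17172 (1.01%) with 10 to under 15, and 147 of 6238 (2.36%) with 15 to under 20. No peak of the whole list had fewer than 30 ChIP reads per bin, and an input of 3 asks for only 21.8, so a peak with the lowest inputs was bound to be a member. An input of 10 asks for 72.6 ChIP reads per bin, more than most comparable peaks had.

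Members were therefore described in 2 kinds, with a border at an input of 10 reads per bin that was chosen after seeing the data. The first kind, 2916 members with input under 10, had a median ChIP count of 53.8 (95% interval 53.5 to 54.0), next to 53.9 (53.8 to 54.1) in the 6508 comparable peaks with the same limit on input that were not members. Their median inputs were 6.44 and 8.92. The intervals of the ChIP medians overlapped, but the inputs differed, and at like input members had the higher ChIP count (above). The median ChIP count of all comparable peaks was reached by 26.4% of these members and by 13.7% of the others. The second kind, 320 members with input of 10 or more, made up 1.37% of the 23410 comparable peaks with such input. ChIP counts in this kind ran from 73.0 to 1019 with a median of 135 (128 to 139), over a median input of 14.5. Comparable peaks with input of 10 or more under the limit had a median of 60.2 ChIP reads and 13.1 input reads. Here the input was close to that of the other peaks and the ChIP count was higher, as the rule requires. A ChIP count of 100 or more was found in 251 of the 320, and in 31 of the 2916.

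**Figure D1:**
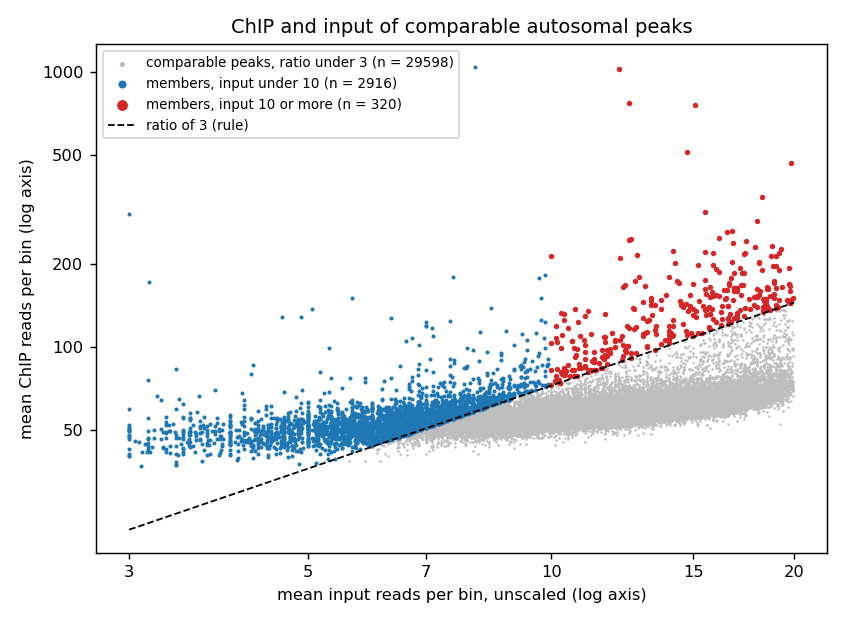
Mean input (x axis, unscaled reads per bin) and mean ChIP count (y axis, reads per bin) of each comparable peak, both on log axes. Grey points are the 29598 peaks under the limit, blue points the 2916 members with input under 10, and red points the 320 members with input of 10 or more; the dashed line is the ratio of 3. Most blue points lie to the left of the grey ones at ChIP counts within their range, but 31 have 100 or more reads per bin. Red points reach 1019 reads per bin, and the highest point of all is blue, at 1039. At like input every member lies above the peaks under the limit, as the rule requires.

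The authors' quality flag, which in this list fell on peaks with a smallest p of at most 0.0001, was carried by 1655 members (51.1%), against 26.5% of all comparable peaks. It was carried by 319 of the 320 members with input of 10 or more and by 1336 of the 2916 with less. The mean p was 0.05 or less in 172 members (5.32%), against 1.75% of all comparable peaks. Both measures compare the same ChIP and input counts as the rule, so nothing is read from these shares. The model behind these p-values is not described in the labels or headers.

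The strongest member was a peak of 3787 bp from 22443813 to 22447599 on chromosome 2, with 1039 ChIP reads per bin over an input of 8.05, or 19.5 after scaling. Its ratio was 53.3 (95% counting interval 45.5 to 62.9). The summit lay near the middle of the peak, 1861 bp from its start, where the highest bin held 3646 reads. Only 1 other peak of the list lay within 100 kb. It had the highest mean ChIP count of all members, over an input below the median of comparable peaks, 11.8.

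Next came a peak from 7319892 to 7323599 on chromosome 18, with a ratio of 42.0 (32.3 to 55.5) from 305 ChIP reads over an input of 3, the lowest input the rule allows. It had the highest deposited log2 ratio of all members, 5.28. By that measure, the authors' mean over bins of log2 ratios, it ranked above the peak on chromosome 2, which had 4.66. The order of these leading peaks thus depends on whether counts are summed over the peak or ratios are averaged over its bins.

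At the members of rank 3 and rank 6 the highest bin held a large share of the ChIP counts, but not most of them. The chromosome 12 peak from 98297400 to 98300567 had a ratio of 34.7 (30.1 to 40.2), with a mean ChIP count of 1019 and an input of 12.1. Its highest bin held 6598 reads, 40.5% of all ChIP counts in the 16 bins of the peak. The other bins averaged 647 reads, 22.0 times the scaled mean input of the peak. The deposited log2 ratio, in which each bin counts equally, was only 2.48. The chromosome 13 peak from 85264407 to 85267669 had a ratio of 20.8 (18.4 to 23.6), with 758 ChIP reads and 15.1 of input. Its highest bin held 4059 reads (31.5%), and the other bins averaged 551 reads, 15.1 times the scaled mean input. Here too the deposited log2 ratio was low for the rank, at 2.54. At both peaks the summit lay in the later part, at 73.1% and 73.9% of the width.

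At rank 4, from 79648000 to 79651399 on chromosome 4, enrichment was spread more evenly. A ChIP count of 768 over an input of 12.5 gave a ratio of 25.5 (22.2 to 29.3), the highest bin held 14.8% of the counts, and the deposited log2 ratio was 4.24. This was also 1 of 6 among the 20 leading members with a mean p of at most 0.05. The seventh, from 13422413 to 13423736 on chromosome 9, was narrow (1324 bp) and alone, with the nearest other peak 121527 bp away. Its ratio was 14.4 (11.8 to 17.6) from 511 ChIP reads over 14.7 of input.

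Of the 20 leading members, 13 had an input under 10 and 7 had more, and they lay on 13 chromosomes. They are described in 2 settings, by what else stood near them. A peak with under 3 input reads per bin (an input-poor peak) lay within 100 kb of 7 of the 20, against 3.79% of all comparable peaks. These 7 all had an input under 10. Chromosome 1 held 4 of them, from 85258000 to 85263569 (ratio 22.4, interval 18.1 to 27.9), 85093038 to 85096210 (11.2), 87377436 to 87378551 (11.0) and 84988370 to 84991746 (9.91). Chromosome 8 held the other 3, from 19962275 to 19964346 (11.5), 19960412 to 19961912 (8.44) and 19949677 to 19952447 (8.38). Those on chromosome 8 lie between 19949677 and 19964346. Those on chromosome 1, apart from the peak from 87377436, lie between 84988370 and 85263569, so the 7 are not separate cases. None of the 7 leading members with input of 10 or more had such a neighbour. It was rare in that kind at large: 1.56% of all members with input of 10 or more had one (interval 0.509 to 3.61%). Of members with input under 10, 6.62% (5.74 to 7.58%) had one. In comparable peaks under the limit the shares were 2.92% (2.71 to 3.14%) with input of 10 or more and 5.72% (5.16 to 6.31%) with less. The intervals overlapped on each side of the border, so a difference between members and other comparable peaks was not resolved.

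Away from input-poor peaks stood 13 of the 20. Beside those already described, they were from 89853601 to 89859007 on chromosome 9 (ratio 10.8), 57164954 to 57166171 on chromosome 3 (10.04), and 120063207 to 120064939 on chromosome 11 (9.82), the last 618294 bp from its nearest peak. From 83711798 to 83715294 on chromosome 18 the ratio was 9.68, from 39104312 to 39106129 on chromosome 16 it was 8.84, from 19767200 to 19768290 on chromosome 5 it was 8.36, and from 111792669 to 111793685 on chromosome 6 it was 8.26. The peak on chromosome 18 had the highest input of the 20, 19.8 reads per bin, and with 464 ChIP reads also the narrowest interval relative to its ratio, 8.73 to 10.8. From rank 8 down the intervals overlapped widely, so the order of those members is not resolved. All 20 intervals had their lower end above the limit of 3.

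**Figure D2:**
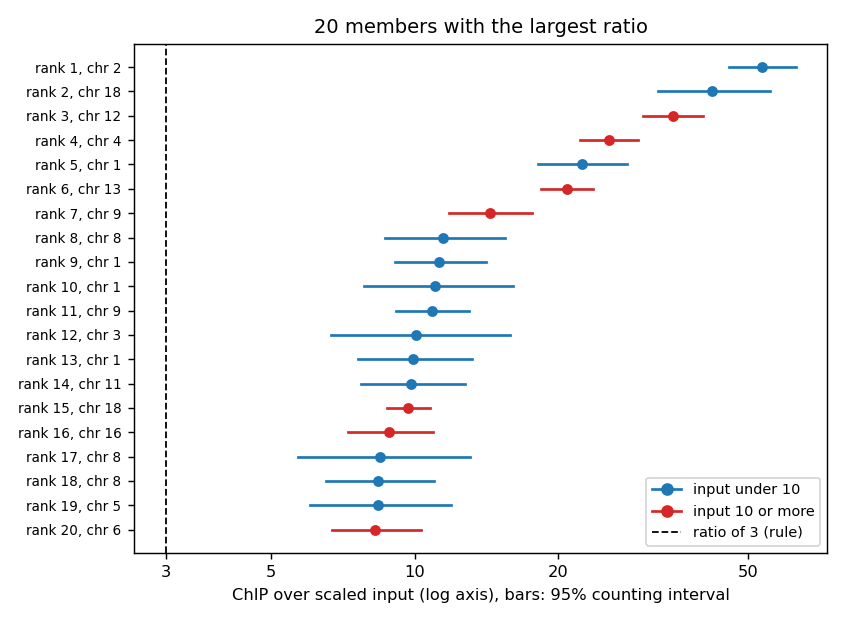
The 20 members with the largest ratio of ChIP to scaled input (log axis), by rank and chromosome; points are ratios, bars exact binomial 95% counting intervals of summed counts, the dashed line the ratio of 3. Blue marks input under 10 and red input of 10 or more. The first 4 members lie above 25, and from rank 8 down the bars overlap.

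The neighbourhood of the fifth-ranked member shows the first setting. Within 200 kb of its ends, on chromosome 1, the list held 28 peaks: 5 members, 17 input-poor peaks, of which 3 had no input read, and 6 others. Of these 6, 2 were 10000 bp or wider, 3 were narrower than 1000 bp and 1 had a ratio under 3. The 5 members had 89.4 to 172 ChIP reads per bin over 3.18 to 10.3 of input. The input-poor peaks around them had a median of 71.2 ChIP reads. That their input was lower than that of the members follows from the definitions and is not read as a result. Directly beside the fifth-ranked member stood a wider peak, from 85264112 to 85288079, with 154 ChIP reads over 2.57 of input. Whether the low input of this stretch comes with repeated sequence was not tested.

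**Figure D3:**
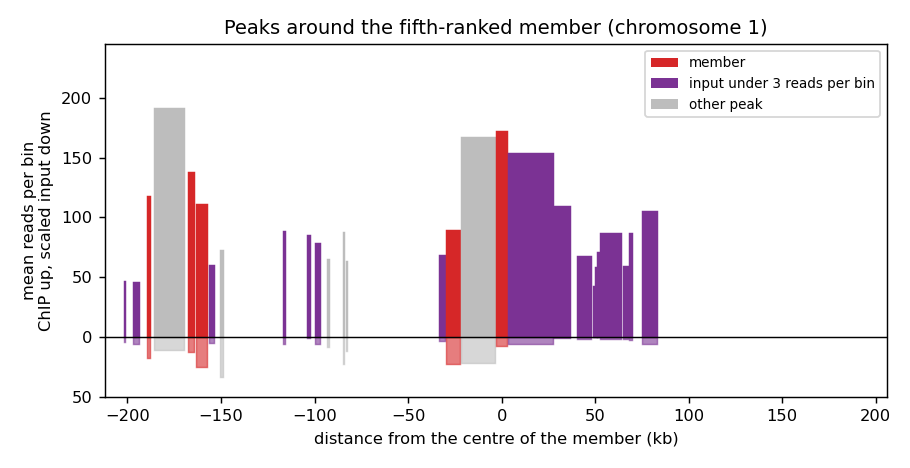
Peaks within 200 kb of the fifth-ranked member on chromosome 1, by distance from its centre in kb; bar width is peak width. Bars above 0 are mean ChIP and bars below 0 mean scaled input, both in reads per bin. Members (red) stand among input-poor peaks (purple) and 6 other peaks (grey), and ChIP bars of 42.3 to 192 reads stand over short input bars.

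Width limits left strong peaks aside. On the autosomes 4341 peaks had a ratio of 3 or more, and 1105 were not members. Of those, 809 were narrower than 1000 bp, 58 were 10000 bp or wider, 349 had an input under 3 and 105 an input of 20 or more, some on more than 1 count. A peak of 991 bp on chromosome 17, from 36621179 to 36622169, had a ratio of 76.7 (58.6 to 102) over an ordinary input of 8.83 and missed the width limit by a few bases.

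Members were found on all 19 autosomes, at 1.35 per Mb (of the length between the outermost peaks of each chromosome). The share of comparable peaks that were members ranged from 7.53% on chromosome 7 (105 of 1394, exact 95% interval 6.20 to 9.05%) to 12.5% on chromosome 14 (216 of 1724, 11.0 to 14.2%). Chromosomes 17 and 8 followed chromosome 14, at 11.2% and 11.1%, with intervals that overlapped its own. The interval held the pooled 9.86% on 14 autosomes. It lay above on chromosome 14 and below on chromosomes 7, 12, 13 and 18. The largest number, 341, was on chromosome 1 (10.7% of its comparable peaks), and the highest number per Mb on chromosome 14 (1.84). These intervals treat peaks as independent, which neighbouring peaks are not, and they were not adjusted for the number of chromosomes. Nor were the shares adjusted for input, on which membership depended steeply and which differed between chromosomes. On chromosome 14, 1059 of 1724 comparable peaks had an input of 10 or more, against 23410 of 32834 over all autosomes. Among those 1059 its share of members was 1.04% (0.520 to 1.85%), an interval that held the pooled 1.37%. The order of chromosomes at like input was not tested. Chromosome 11, with few peaks of any kind, had 82 members, and its share of 9.12% (7.32 to 11.2%) held the pooled value.

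Members with input of 10 or more had another distribution. They made up 2.44% of such comparable peaks on chromosome 5 (36 of 1476, interval 1.71 to 3.36%), 2.37% on chromosome 8 (30), 2.33% on chromosome 11 (16) and 2.08% on chromosome 2 (31). The lowest share was 0.445% on chromosome 3 (9 of 2022, 0.204 to 0.843%), followed by 0.689% on chromosome 1 (15 of 2177, 0.386 to 1.13%) and 0.733% on chromosome 16. The intervals of chromosomes 3 and 5 did not overlap. Chromosomes 2, 5 and 8, chosen after seeing their values, held 30.3% of these members and 17.9% of the comparable peaks with the same limit on input that were under the ratio of 3. Chromosome 1 thus had the most members and one of the lowest shares of the second kind.

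**Figure D4:**
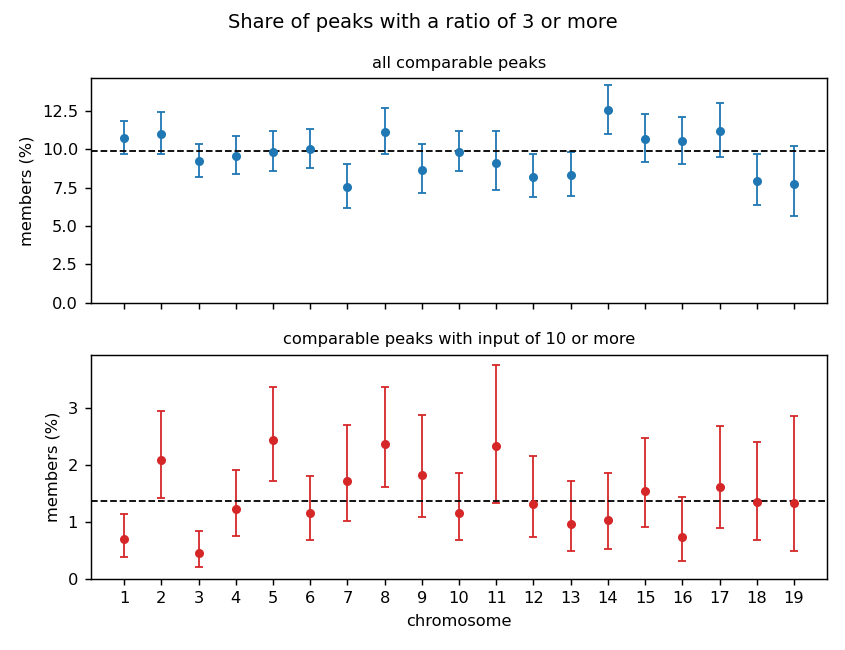
Percentage of comparable peaks that were members on each autosome, for all comparable peaks (top) and for those with input of 10 or more (bottom). Points are shares, bars exact binomial 95% intervals and dashed lines the pooled shares, 9.86% and 1.37%. Chromosome 14 is highest in the top panel; chromosome 3 is lowest and chromosome 5 highest in the bottom panel.

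Members were joined into groups by their distance on a chromosome. Joined where the gap from end to start was at most 1 Mb, 2982 of 3236 (92.2%) were in a group of 2 or more, and 162 groups held 5 or more. This distance is wide relative to the density of peaks, since the median member had 70 other peaks of any kind within 1 Mb. A like share for other comparable peaks was not computed, so grouping is not read as a trait of members. No other peak lay within 100 kb of 5.01% of members and of 4.59% of comparable peaks under the limit. At a gap of 100 kb, 1641 members (50.7%) were grouped and 57 groups held 5 or more, with 364 members. The 2 largest were on chromosome 5, from 57082212 to 57835563 (16 members among 53 peaks), and on chromosome 1, from 112506888 to 113166279 (14 of 48). Then came groups of 10 on chromosome 2, from 87871634 to 88429165, and on chromosome 5, from 80123729 to 80420383, the latter with 10 members among 23 peaks. In these 4 groups no member had an input of 10 or more, the median ratios were 3.27 to 3.67 and the median ChIP counts 51.4 to 53.9. They were thus runs of peaks with common ChIP counts over low input, with single ratios up to 8.11.

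The tightest group of 5 or more among the 10 largest was of another make. On chromosome 8, from 19714556 to 19772967, 8 of 14 peaks within 58412 bp were members. Their median ratio was 5.50 and ranged from 3.35 to 7.77. The ChIP counts ran from 52.1 to 117 reads per bin, 2 members had an input of 10 or more, and all 8 carried the quality flag. Among the other peaks there 3 were input-poor. Leading members 8, 17 and 18 lie less than 200 kb further along the same chromosome.

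With the gap of 1 Mb the longest group ran from 88480616 to 99099799 on chromosome 14, with 65 members among 501 peaks. Others held 59 members on chromosome 3, from 41578229 to 49027589, and 58 on chromosome 14, from 106602400 to 114695106. The densest of the 10 largest was also on chromosome 14, from 81276470 to 86046922, where 45 of 222 peaks (20.3%) were members, against 8.57% of the list. Groups begin and end at a member and this one was picked for its share, so the list is not a matched background. Its members had a median input of 5.93, and none had 10 or more. Median ratios of these 4 groups were 3.36, 3.45, 3.62 and 3.58.

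The neighbours of members were also described peak by peak. The nearest peak of the list was itself a member for 394 members (12.2%, exact 95% interval 11.1 to 13.4%), against 8.28% (7.97 to 8.60%) of comparable peaks under the limit. Among peaks with input under 10 these shares were 12.7% (11.5 to 13.9%) for members and 11.2% (10.4 to 12.0%) for the others, and the intervals overlapped. Among peaks with input of 10 or more they were 7.81% (5.12 to 11.3%) and 7.46% (7.13 to 7.81%). These intervals overlapped too, so a difference on either side of the border was not resolved. Members and others were not matched on input within a side, so neighbours at like input were not compared.

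The 2 kinds of members stood in different surroundings. The first kind had a median of 73 other peaks within 1 Mb (95% interval 72 to 75), next to 75 (74 to 75) in comparable peaks under the limit with input under 10. These medians do not compare peaks of like width or input. In each of 5 width classes the first kind had more, from 60 against 54 below 1500 bp to 94.5 against 85 at 5000 bp and more. By input it had fewer, 77 against 84 at 5 to under 7 and 63 against 74 at 7 to under 10. The second kind had 15 (14 to 17), against 51 (51 to 52) in peaks under the limit with input of 10 or more. The second kind had the lower median on each of the 19 autosomes and in each of 5 width classes. The distance to the nearest peak had a median of 41913.5 bp (31971 to 54898) in the second kind, against 10407 bp in its comparison peaks and 7412.5 bp in the first kind. No other peak lay within 100 kb of 87 of the 320 (27.2%), against 5.51% of the comparison peaks. At a gap of 100 kb only 27 of the 320 were grouped with another of their kind, and no group held more than 3. These values depend on the border of input. With a border at 8, chosen after seeing the data, members above it had a median of 26 other peaks within 1 Mb, against 55 in the comparison peaks, and a nearest peak at 21657 bp, against 9654 bp.

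Peaks with a raised ChIP count that were not members were also in sparse surroundings. Comparable peaks under the limit with input of 10 or more and at least 72.6 ChIP reads per bin, 1596 in number, had a median of 18 other peaks within 1 Mb (17 to 19), next to the 15 (14 to 17) of the members. They had a median ChIP count of 78.4, below the 135 of the members, so the groups share a minimum and are not matched on ChIP. Autosomal peaks of the same widths with input of 20 or more had 14 (13 to 15), at a median ChIP count of 99.6. No ratio limit was set for them, and their ratios had a median of 1.77 and reached 5.41. Comparable peaks just under the limit, with a ratio of 2.5 to under 3 and input of 10 or more, were between, at 33. No other peak lay within 100 kb of 23.4% of the 1596 peaks and of 29.2% of those with input of 20 or more. The median distance to the nearest peak was 34656 and 42620 bp in these groups. Just under the limit the values were 12.6% and 16727 bp. Nothing particular to a ratio of 3 is read from these values. Mappability and copy number at these positions were not tested.

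Summit sharpness, the highest ChIP count of a bin over the mean ChIP count of the peak, was not part of the rule but is made of the same ChIP counts, so it is described without a test. Over all members the median was 1.38 (95% interval 1.37 to 1.39), slightly below the 1.41 (1.41 to 1.42) of comparable peaks under the limit. Members were narrower, with a median width of 1830.5 against 3380 bp, and the highest of fewer bins is lower. Within each of 5 width classes members were the sharper, by a little: 1.33 against 1.33 at 1000 to under 1500 bp (1.332 and 1.325), 1.39 against 1.36 at 2000 to under 3000 bp, and 1.569 against 1.497 at 5000 bp and more. The order of members and others thus turned once widths were alike.

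Median sharpness differed between the 2 kinds. The median was 1.36 (1.35 to 1.36) in members with input under 10 and 1.76 (1.69 to 1.80) in those with more. Comparison peaks under the limit had 1.40 and 1.42. A highest bin of at least 2 times the mean was present in 81 of 320 members of the second kind (25.3%, exact 95% interval 20.6 to 30.4%). It was present in 1.88% of comparison peaks with input of 10 or more. In the first kind it was found in 33 of 2916 (1.13%, 0.780 to 1.59%). Comparison peaks with input under 10 had 0.645% (0.466 to 0.871%). The second kind had the higher median on all 19 autosomes. In width classes it rose from 1.62 against 1.34 below 1500 bp to 2.08 against 1.37 at 2000 to under 3000 bp, where 45 members counted. Medians above those of the comparison peaks were also found in the 1596 peaks named above (1.52, 1.51 to 1.54) and in peaks with input of 20 or more (1.60, 1.58 to 1.63). Both groups had lower median ChIP counts than the members of the second kind, so whether sharpness differs at like ChIP count was not tested.

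**Figure D5:**
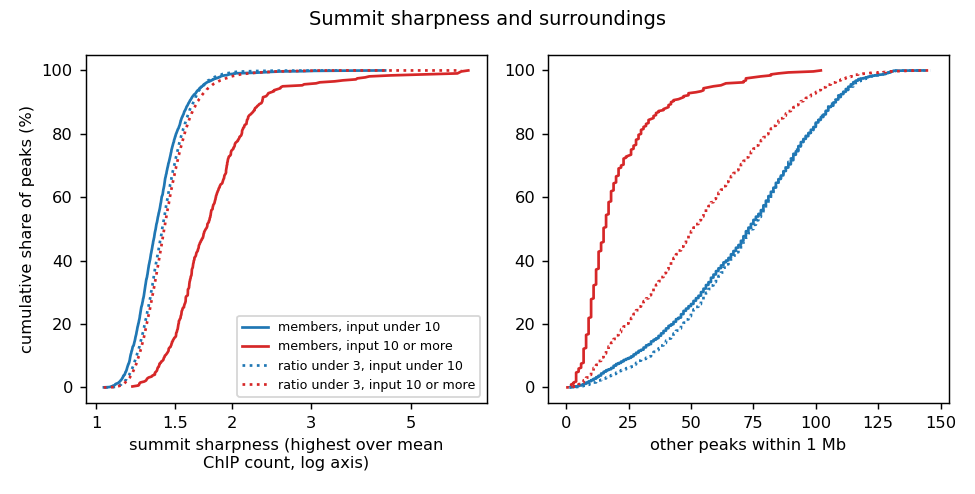
Cumulative share of peaks (y axis, percent) by summit sharpness (left, log axis) and by the number of other peaks within 1 Mb (right). Solid lines are members and dotted lines comparable peaks under the ratio of 3, blue with input under 10 and red with input of 10 or more. The solid red line lies apart in both panels, with medians of 1.76 and 15, while the other 3 lines have sharpness medians of 1.36 to 1.42.

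The 5 sharpest members had ratios from 3.05 to 34.7. From 51842293 to 51850529 on chromosome 9 the highest bin held 753 reads, 6.71 times the mean of 112, and the ratio over the whole 8237 bp was 3.05. Without that bin the other 41 averaged 96.5 reads, 2.62 times the scaled input, so the peak would not have met the limit. The same held from 85885256 to 85891150 on chromosome 18, with a sharpness of 6.41 and a ratio of 3.21, or 2.61 without the highest bin. From 4553744 to 4561199 on chromosome 13, with 6.35, the ratio of 4.02 fell to 3.44 without it. The remaining 2 of the 5 sharpest were the leading members on chromosomes 12 (6.48) and 13 (5.36). With the highest bin left out of every peak, 2666 of the 3236 members still met the limit.

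At the other end were plateaus. The flattest member, from 98837005 to 98838199 on chromosome 2, had a highest bin of 56 reads over a mean of 53.8 (sharpness 1.04) and a ratio of 5.34. The next 4, on chromosomes 13, 15, 1 and 3, from 81529200, 31740016, 149415625 and 47895259, had a sharpness of 1.06 to 1.07 and ratios of 3.06 to 3.61. All 5 were at most 1296 bp wide, with 6 or 7 bins.

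With each peak cut into 3 equal parts, the central one held the summit in 41.7% of members (exact 95% interval 39.9 to 43.4%), against 33.9% (33.3 to 34.4%) of comparable peaks under the limit. This too went with width. Below 1500 bp the shares were 49.5% and 52.0%, and at 3000 to under 5000 bp 35.1% and 28.9%. Among members of the second kind under 2000 bp wide the summit was central in 59.0% (166 members under 1500 bp) and 59.3% (86 wider members), against 53.6% and 45.7% in comparison peaks with input of 10 or more. At 5000 bp and more, with 12 members, the order was the opposite, 16.7% against 28.4%. Over all widths the share in the second kind was 55.0% (49.4 to 60.5%), and intervals overlapped those of comparable peaks under the limit with input of 10 or more and at least 72.6 ChIP reads (51.1%, 48.6 to 53.6%), of those with a ratio of 2.5 to under 3 (364 of 728, 46.3 to 53.7%) and of peaks with input of 20 or more (49.5%, 46.5 to 52.5%).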

How the data were processed

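DNA from 2 anti-FLAG ChIP and 2 input libraries (single reads of 100 bp, mean library size 350 bp, per the labels) went through alignment; the submitters' processing notes name Bowtie 0.12.7 and the build mm9. Not given in the sources used here are the peak caller, the treatment of repeated or duplicate reads and the pooling of libraries. Per the file headers, mean ChIP, mean input and scaled input are signal in reads per bin. For the highest bin the authors gave a count. Their deposited log2 ratio is a mean, and −log10 p-values were used as deposited by the authors.

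Here bins were placed on a 200 bp grid from position 0, which made the ChIP and input sums whole (tolerance 1e-06) in all 37778 peaks. Ratios were mean ChIP over deposited scaled input, a constant 2.42 times input. Intervals are exact binomial 95% intervals of sums or shares, and binomial 95% intervals of medians. Reads can count in several bins and are not independent molecules, so intervals are too narrow. Library totals are not given, so depth per library is unknown. No test across samples was possible.

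Named were the 20 largest ratios, the 5 sharpest and 5 flattest members, the largest groups and 3 peaks on each side of the limit; other named peaks, the input border of 10 and its comparisons were chosen after their values were seen. Members and lists were chosen with earlier results of these data known. Gene annotation and base composition were not analysed here. Alternatives were other limits, gaps, distances and rankings. Calculations were checked on simulated data (scipy 1.17.1, numpy 2.4.6 and pandas 2.3.3 under Python 3.11.15; plots by matplotlib 3.10.9).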

Additional observations from a re-analysis of the deposited data

How the results depend on the processing

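The number of members followed the limits: 7752 at a ratio of 2.5, 826 at 4, 1655 with the quality flag, 172 with a mean p of at most 0.05, and 6351 by the deposited log2 ratio, 3146 of them among the 3236. It stayed within 1.5 times with input from 5, without width limits and, added later, without the highest bin. The share of comparable peaks was 23.6% at 2.5, 2.52% at 4, 8.56% with input from 5, 19.01% with the flag and 5.91% by covered bases. The share in groups was 50.7% with a gap of 100 kb, 99.8% with 5 Mb, 71.7% at a ratio of 4, 90.6% with input from 5 and 81.9% with the flag. Fewer or more peaks follow from these limits by construction. Median sharpness was 1.46 with the flag and 1.40 at 2000 to under 4000 bp, where comparable peaks under the limit had 1.38, so that the order turned, as it did in each width class of the report. Ranking by the deposited log2 ratio put the peak with a ratio of 42.0 first and shared 11 of 20 leading members, against 17 by the lower end of the interval. Members had a median of 1 other peak within 10 kb and 70 within 1 Mb, in place of 8 within 100 kb. Settings added after seeing the data moved members of higher input only with a border at 8 (26 peaks within 1 Mb, sharpness 1.57, nearest peak at 21657 bp) and, for sharpness, under 2000 bp (1.67), and comparison peaks lay on the same side in all 6. Counting error left 2318 members with an interval that reached below 3, and depth is unknown. No paired analysis was possible because values per library are not in the peak list, and libraries could not be left out in turn for the same reason.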
